A study of Mus musculus with 8 samples.

Results

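Peaks of the transcription factors GLI1 and GLI2 were examined around 5 core pluripotency genes, Pou5f1, Nanog, Sox2, Klf4 and Esrrb. The members were all peaks of the 4 deposited lists that overlapped a fixed mm9 window around one of these genes by at least 1 bp: chromosome 17 from 35593000 to 35698000 for Pou5f1, chromosome 6 from 122607000 to 122715000 for Nanog, chromosome 3 from 34499000 to 34602000 for Sox2, chromosome 4 from 55490000 to 55596000 for Klf4, and chromosome 12 from 87652000 to 87912000 for Esrrb. These windows hold 112 of the 173807 peaks in the lists (0.0644%). The choice of windows used gene positions and no measured value. The cells came from the female mouse embryonic stem cell line F1-2.1 and carry a Tet-on transactivator (rtTA) and a stable GLI1-3xFLAG or GLI2-3xFLAG transgene under tetracycline response elements. All groups were grown with LIF on irradiated feeder fibroblasts and received 1 µg/mL doxycycline and 100 nM SAG, a Smoothened agonist that turns Hedgehog signaling on, for 72 hours (day 0). Each factor has 2 anti-FLAG ChIP libraries, which the labels call biological replicates, and 2 input libraries. The tagged factor comes from an induced transgene and not from its own locus, and the sources used here do not say whether each line is a single clone. Inputs and cells without a tagged protein were not analysed here. Each ChIP library has 1 peak list, with 42634 and 55741 peaks for GLI1 replicates 1 and 2, and 26511 and 48921 for GLI2. The read depth is unknown, so the intervals given cover counting of peaks only. Peak lists carry no expression values, so the cell type could not be checked against its markers.

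Pluripotent cells keep their state through a small network of transcription factors that bind each other's enhancers and their own. Pou5f1 encodes OCT4, which pairs with SOX2 on composite DNA elements, and Nanog encodes a homeodomain protein that stabilises self-renewal. Klf4 encodes a zinc-finger factor downstream of LIF, and Esrrb encodes an orphan nuclear receptor that is a target of NANOG. GLI proteins are zinc-finger factors through which Hedgehog signaling reaches its target genes, and they bind sites close to the consensus GACCACCCA.

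The windows were as long as each gene plus about 50 kb on either side. After removal of 50 kb from each end, 5.0, 8.0, 3.0, 6.0 and 160.0 kb remain for Pou5f1, Nanog, Sox2, Klf4 and Esrrb, against RefSeq gene lengths of 4746, 7145, 2467, 5339 and 160512 bp. This remainder is called the central part below. It stands in for the gene, because an annotation of mm9 was not used here and the position of each exon, intron and start site in that build is not given. In RefSeq the nearest protein-coding neighbours, before and after, are H2-Q10 and Tcf19 for Pou5f1, Dppa3 and Slc2a3 for Nanog, Dnajc19 and Atp11b for Sox2, Rad23b and Actl7b for Klf4, and Gpatch2l and Vash1 for Esrrb. Which of these reach into the mm9 windows was not determined.

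Nanog and Esrrb were the 2 genes with peaks inside the central part, so 1 promoter of each is shown, taken from RefSeq in build GRCm38.p6 (250 bases before to 50 after the annotated start, plus strand). The coordinates are of that build and cannot be set against the mm9 peaks. In the Nanog promoter, at chr6:122707239-122707538 of GRCm38.p6, the capitals mark GCATTACAA, part of the composite element through which OCT4 and SOX2 are known to bind it. For Esrrb the upstream of 2 listed promoters is shown, at chr12:86360867-86361166 of GRCm38.p6. There the capitals mark 1 of the 3 runs closest to the GLI consensus, each with 2 mismatches. In the other Esrrb promoter the closest runs have 3 mismatches.

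Nanog: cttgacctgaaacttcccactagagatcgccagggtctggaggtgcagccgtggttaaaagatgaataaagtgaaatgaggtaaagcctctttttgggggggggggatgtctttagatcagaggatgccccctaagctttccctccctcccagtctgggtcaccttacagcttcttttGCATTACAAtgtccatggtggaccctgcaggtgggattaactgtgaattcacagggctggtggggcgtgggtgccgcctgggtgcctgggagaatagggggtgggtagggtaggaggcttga

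Esrrb: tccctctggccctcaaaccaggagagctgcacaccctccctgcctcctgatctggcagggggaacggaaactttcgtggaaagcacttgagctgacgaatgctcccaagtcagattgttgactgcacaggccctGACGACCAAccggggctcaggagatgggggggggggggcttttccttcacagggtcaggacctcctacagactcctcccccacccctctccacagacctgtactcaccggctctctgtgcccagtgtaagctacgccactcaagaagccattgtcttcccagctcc

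The letters GACCACCCA, read on both strands, were in none of the 8 promoters that RefSeq lists for the 5 genes, exactly or with 1 mismatch. Among all 32851 promoters of 300 bases, 0.253% held them exactly and 6.74% with at most 1 mismatch. With at most 2 mismatches they were in 3 of the 8, which are the upstream promoters of Pou5f1 and Esrrb and the Sox2 promoter, against 58.3% of all promoters. The element GCATTACAA was in both listed Nanog promoters, which overlap, and in 0.149% of all promoters. A missing match says only that these letters are not in these windows.

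Every window held at least 1 peak in every list, that is, in 20 of 20 combinations. To set this beside a background, windows of the same size were tiled every 10 kb along the same chromosome, without regard to genes. Among these, 86.2% held a peak of GLI1 replicate 1, 87.5% of GLI1 replicate 2, 71.2% of GLI2 replicate 1 and 87.6% of GLI2 replicate 2, so the presence of a peak alone is close to the background. The number of peaks was higher than in most such windows at Pou5f1, Nanog, Sox2 and Esrrb, and close to the typical number at Klf4. Summed over the 5 windows, GLI1 had 26 peaks in replicate 1 (95% Poisson interval 17 to 38.1) and 31 in replicate 2 (21.1 to 44.0). GLI2 had 21 (13.0 to 32.1) and 34 (23.5 to 47.5). The means of the tiled windows add up to 12.6, 16.2, 7.82 and 14.9 peaks in the same order, so the windows held 2.06, 1.92, 2.69 and 2.28 times as many. Held to a score of at least 50, the GLI1 replicate 1 list kept 7 of its 26 window peaks (26.9%, 95% exact interval 11.6 to 47.8), against 37.2% of the whole list, with none left at Sox2 or Klf4. Tiled windows were not matched for gene content, and no test was made against them.

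**Figure D1:**
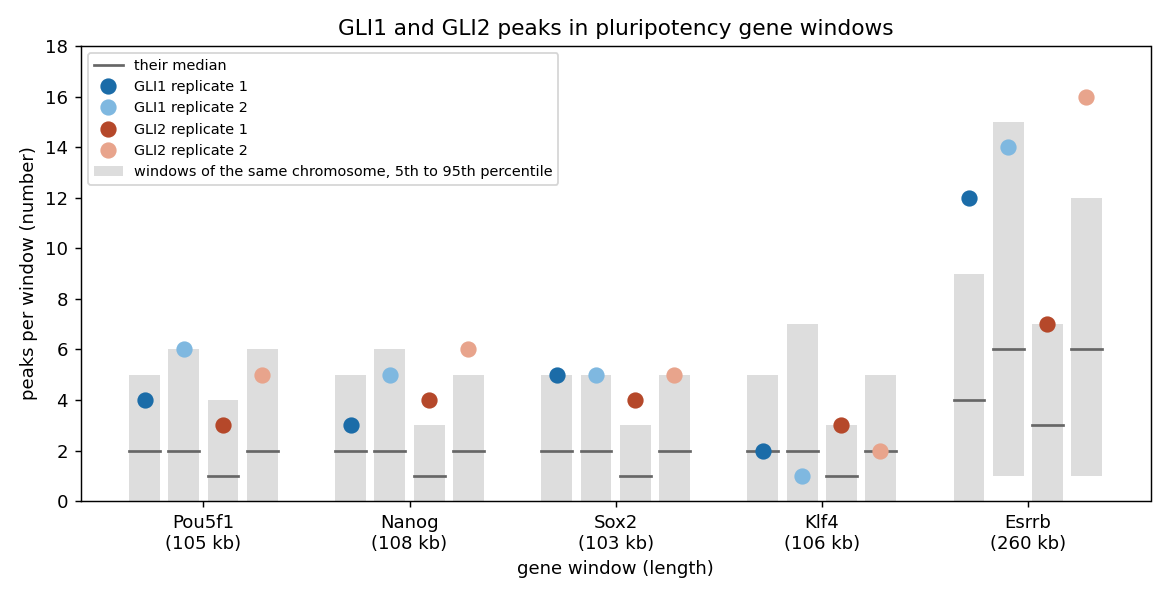
Number of peaks per gene window (y axis) for the 5 windows (x axis, with lengths in kb). Points are single lists, grey bars span the 5th to 95th percentile of same-size windows of the same chromosome and grey lines their median: Klf4 points lie at 1 to 3 peaks, and 5 points lie above their bars, which are both GLI2 lists at Nanog (4 and 6), GLI2 replicate 1 at Sox2 (4), and GLI1 replicate 1 and GLI2 replicate 2 at Esrrb (12 and 16).

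At Pou5f1, the peaks lay on both sides of the gene and none overlapped the central 5.0 kb, where an even spread over the window would put 1.10 peaks of the 4 lists together. GLI1 had 4 peaks in replicate 1 and 6 in replicate 2, and GLI2 had 3 and 5. At least as many peaks lay in 17.5, 6.68, 14.1 and 11.3% of the tiled windows of chromosome 17, in the order GLI1 replicates 1 and 2, then GLI2 replicates 1 and 2. The site nearest to the gene belonged to GLI2 in both replicates, from 35648001 to 35649200 in replicate 1 (score 57.5), which begins 1 bp past the central part, on the side where the gene ends if it reads along the plus strand as in RefSeq. No GLI1 peak overlapped it. The highest GLI2 replicate 1 score of this window, 62.8, belonged to a peak from 35634801 to 35636400, 6.6 kb below the central part. No other list had a peak there. Another site, from 35655201 to 35656800 and 7.2 kb past the central part, had peaks in both GLI1 lists and in GLI2 replicate 2. Its replicate 1 score of 51.2 for GLI1 was the highest of the 4 GLI1 replicate 1 peaks of this window, whose other scores were 41.3 to 43.5. Further below the gene, a site from 35604001 to 35605800, was shared by the replicate 2 lists of both factors. GLI1 replicate 2 also had 4 peaks between 35680601 and 35696800, up to 3200 bp wide, and no other list had a peak there.

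At Nanog, both factors had recurrent sites close to the gene and GLI2 had peaks in its central part. GLI1 had 3 and 5 peaks in replicates 1 and 2, and GLI2 had 4 and 6. At least as many lay in 35.6, 16.5, 3.5 and 2.51% of the tiled windows of chromosome 6, so the GLI2 counts stood further above the background than those of GLI1, a difference that was not tested. In the central 8.0 kb, GLI2 replicate 1 had a peak from 122658001 to 122659600 (score 64.9) and GLI2 replicate 2 had one from 122663001 to 122664600. An even spread over the window would put 1.56 peaks of the 4 lists together there. The 2 peaks did not overlap, so neither recurred, and GLI1 had no peak there in either list. The widest site of the window, from 122645001 to 122648800 and 8.2 kb below the central part, held peaks of both GLI1 lists and of GLI2 replicate 2, and its GLI1 replicate 1 peak scored 69.6, above 95.2% of that list or equal to it. Above the central part, 122670201 to 122671800 was marked by both GLI2 lists (score 67.9) and 122683001 to 122684600 by both GLI2 lists and GLI1 replicate 2 (score 61.4). The same 3 lists met at the window's edge, from 122606001 to 122607800 (score 65.0).

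At Sox2, counts were even across lists, and the central part held no peak. GLI1 had 5 peaks in each replicate, and GLI2 had 4 and 5. At least as many lay in 5.9, 9.05, 3.2 and 7.48% of the tiled windows of chromosome 3. Peaks spread evenly over the window would put 0.814 peaks of the 4 lists together on the central 3.0 kb, so a count of 0 there is close to what the density of the window gives. The nearest peak ended 8.6 kb below it, in GLI1 replicate 1. That peak, from 34534801 to 34540400, was 5600 bp wide, the widest of all 112, with a middling score of 48.1, and it belonged to a region that GLI1 replicate 2 and GLI2 replicate 2 shared. The only region of the 5 windows with a peak in all 4 lists lay here, from 34588001 to 34590000, 36.0 kb above the central part. Its GLI1 replicate 1 score of 49.6 was above the list median, with 61.5% of the list scoring no higher. Its GLI2 replicate 1 score of 50.4 was low, with 3.27% of the list scoring no higher. A neighbouring region from 34584801 to 34586400 was shared by both GLI2 lists and GLI1 replicate 2 (GLI2 score 59.8). Both GLI2 lists and no GLI1 list marked 34500201 to 34501600 (score 51.6).

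At Klf4, peaks were few and none recurred. GLI1 had 2 peaks in replicate 1 and 1 in replicate 2, and GLI2 had 3 and 2. At least as many lay in 55.8, 79.6, 12.4 and 60.4% of the tiled windows of chromosome 4, so 3 of the 4 lists held no more peaks than a typical window of that chromosome. One GLI2 replicate 1 peak, from 55488801 to 55490000, touched the window by 1 base and drops out when a peak is counted by its centre. The central 6.0 kb held no peak, where an even spread would put 0.537, and the nearest began 5.0 kb above it, in GLI1 replicate 1, from 55551001 to 55552600 (score 43.2). All 5 replicate 1 peaks of the window scored below the median of their list, at 41.3 and 43.2 for GLI1 and 51.7, 52.2 and 55.5 for GLI2, against list medians of 46.9 and 58.8. None of its 8 regions was found in several lists, while the other 4 windows each held 3 or more such regions. With so few regions, the exact interval of the Klf4 share runs from 0 to 36.9%. It contains the share of 18.9% among all regions of the genome, as do the intervals of the other 4 windows. The count of 0 therefore does not set this window apart.

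Esrrb, whose gene is long, had the most peaks, in the gene and around it. GLI1 had 12 and 14 peaks in replicates 1 and 2, and GLI2 had 7 and 16. At least as many lay in 0.839, 8.53, 5.5 and 0.686% of the tiled windows of chromosome 12. The 160.0 kb of the central part held 7, 11, 5 and 9 of these peaks in the same order, and the 100 kb outside it 5, 3, 2 and 7. Per 100 kb and averaged over lists this was 5.00 in the central part and 4.25 outside it, so the peaks were spread over the whole window. The peak with the highest score of all 5 windows lay in the gene: from 87756801 to 87758600, GLI1 scored 99.5 in replicate 1, above 99.5% of its list or equal to it, and GLI1 replicate 2 had a peak there as well. No GLI2 peak overlapped this site. The highest GLI2 score, 77.2, belonged to a site from 87784201 to 87786000 that recurred in GLI2 replicate 2 and GLI1 replicate 2. Next to it, 87793001 to 87794200 was shared by both GLI1 lists and GLI2 replicate 2, with a low GLI1 score of 40.5. At the lower end of the central part, where the gene begins if it reads along the plus strand as in RefSeq, a region from 87702401 to 87704800 held a GLI1 replicate 1 peak (score 45.1) and a GLI2 replicate 2 peak.

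GLI2 recurred without GLI1 at 4 places of the Esrrb window. Of these, 87670601 to 87672200 (score 70.1) and 87680201 to 87682000 (score 69.2) lay below the central part. The other two, 87798201 to 87799800 (score 53.8) and 87826201 to 87829400 (score 62.5), lay inside it. Towards the upper end of the window, 87889601 to 87891400 joined GLI1 replicate 1 (score 70.0) with GLI2 replicate 2, and 87907401 to 87908600 joined the replicate 2 lists of both factors.

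**Figure D2:**
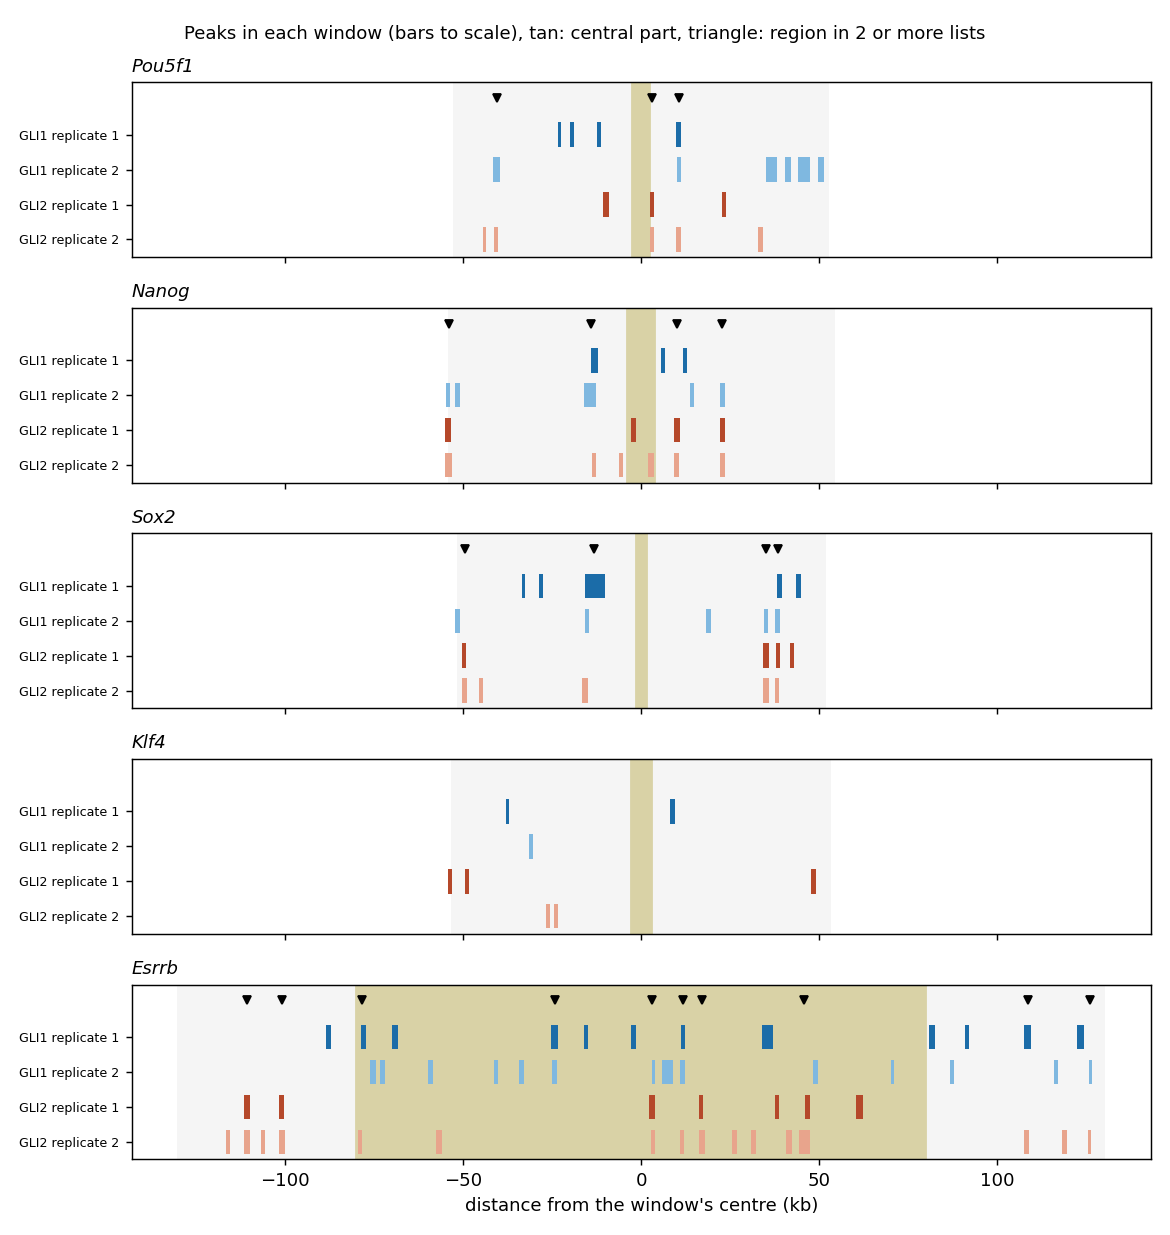
Position of every peak in the 5 windows as distance from the window's centre in kb (x axis), with 1 row per list (y axis), bars drawn to scale, the window in grey, its central part in tan and a triangle over each region with peaks of 2 or more lists. The central parts of Pou5f1, Sox2 and Klf4 hold no peak, and Klf4 has no triangle.

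Per 100 kb, the windows ranked Esrrb, Sox2, Pou5f1, Nanog and Klf4. Esrrb had 4.71 ± 1.49 peaks per 100 kb (SD over the 4 lists, n = 4), Sox2 4.61 ± 0.485, Pou5f1 4.29 ± 1.23 and Nanog 4.17 ± 1.20. These 4 windows differed from their neighbours in this order by less than the SD. Klf4 had 1.89 ± 0.770, with single lists between 0.943 and 2.83. Its highest list, GLI2 replicate 1, overlapped the lowest lists of Esrrb (2.69) and Nanog (2.78), and Klf4 was the lowest window in the other 3 lists. On average over lists, the count was 2.39 times the tiled mean at Esrrb, 2.69 times at Sox2, 2.25 times at Pou5f1, 2.41 times at Nanog and 1.24 times at Klf4.

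In counts not adjusted for list length, GLI1 and GLI2 did not differ at these genes beyond the spread of the lists. Relative to the tiled means, both GLI2 lists (2.69 and 2.28 times) stood above both GLI1 lists (2.06 and 1.92 times), which was not tested. Over the 5 windows GLI1 had 28.5 ± 3.54 peaks and GLI2 27.5 ± 9.19 (SD, n = 2), a difference of 1 peak (exact permutation test, two-sided, p = 1). With 2 lists per factor this test cannot give a p below 0.3333. The difference, GLI1 minus GLI2, came to 5 between the replicate 1 lists and -3 between the replicate 2 lists. By gene it was 1 at Pou5f1, -1 at Nanog, 0.5 at Sox2, -1 at Klf4 and 1.5 at Esrrb, with exact permutation p-values of 0.667 or 1 at each gene. At Pou5f1 the GLI1 excess of 1 peak, and at Nanog and Klf4 the GLI2 excess of 1 peak, held within both replicate numbers. The Pou5f1 excess did not hold in other settings. With windows shortened by 30 kb at each end, GLI1 replicates 1 and 2 had 4 and 1 peaks there and GLI2 2 and 2. With lists of equal length, GLI1 had 1 and 5 there and GLI2 3 and 2. With peaks counted by their centres, the replicate 1 lists were level at Nanog (3 and 3) and at Klf4 (2 and 2). The replicate 1 excess at these 2 genes thus rested on peaks that cross the window edge. Between the replicate 2 lists it remained, with 4 GLI1 and 5 GLI2 peaks at Nanog and 1 and 2 at Klf4. Peaks covered 6.41 ± 0.436% of the window bases for GLI1 and 5.37 ± 1.99% for GLI2 (SD, n = 2). The named cutoff is 1e-4 in the GLI1 lists and 1e-5 in those of GLI2. All GLI2 replicate 1 peaks score at least 50, so holding the replicate 1 lists to that score removes GLI1 peaks alone, and the difference then turned to -8.5 peaks (two-sided exact permutation p = 0.667). With lists of equal length, 26511 peaks each, GLI1 kept 13 and 19 window peaks and GLI2 21 and 21. The difference was then -5 (exact permutation p = 0.3333, the smallest it allows). The replicate 2 lists carry no usable scores, so the peaks kept there cannot be read as the highest-scoring ones. With GLI2 replicate 1 or 2 left out the difference was -5.5 or 7.5. It turned to -1.5 without GLI1 replicate 2 and rose to 3.5 without GLI1 replicate 1.

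Sites that recurred made up 21 of the 81 regions in the windows, each region being a merged run of peaks that overlap across lists. This is 25.9% (95% exact interval 16.8 to 36.9), against 18.9% of all 142067 regions of the genome. Pou5f1 had 3 regions with peaks in 2 or more lists, Nanog 4, Sox2 4, Klf4 0 and Esrrb 10. As many or more were found in 15.3% of tiled windows for Pou5f1, 4.37% for Nanog, 3.5% for Sox2, 100% for Klf4 (where 34.3% held none) and 1.7% for Esrrb. Peaks in both GLI1 lists marked 6 regions (7.41%, 2.77 to 15.4), against 6.26% in the genome. Peaks in both GLI2 lists marked 12 (14.8%, 7.90 to 24.4), against 6.51%. The single region in all 4 lists, at Sox2, is 1.23% of the 81 (0.0313 to 6.69), against 0.421%. Of the 12 regions recurrent for GLI2, 7 had no GLI1 peak (58.3%, 27.7 to 84.8), against 72.8% in the genome. Of the 6 recurrent for GLI1, 1 had no GLI2 peak (16.7%, 0.421 to 64.1), against 75.1% in the genome. Most sites recurrent for GLI1 in these windows thus also held a GLI2 peak. That peak was of GLI2 replicate 2 alone, except at the Sox2 region in all 4 lists, so this count rests largely on 1 GLI2 list. Without GLI2 replicate 2, the recurrent regions dropped from 21 to 10, so this list carried many of them.

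**Figure D3:**
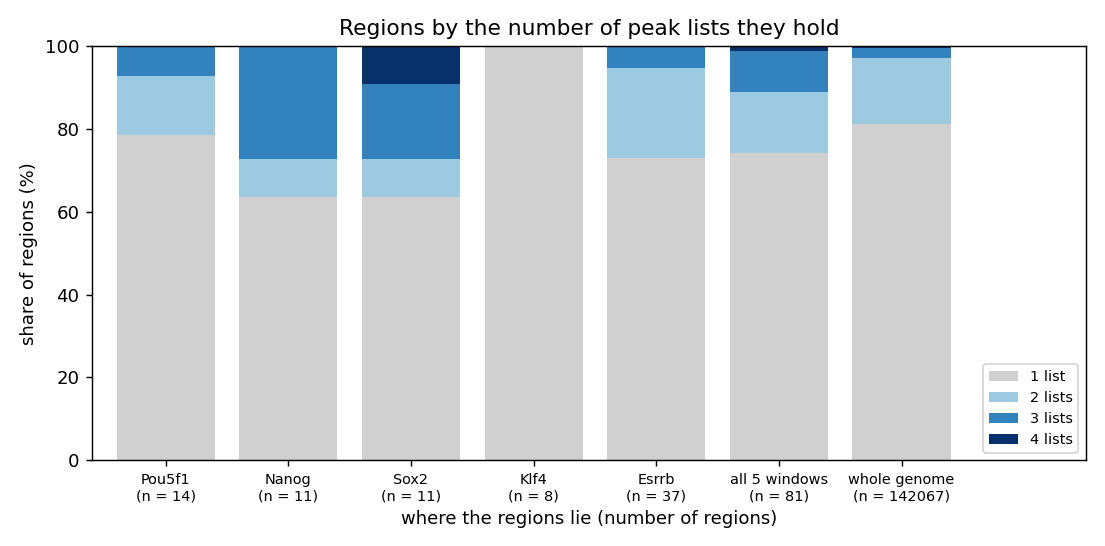
Share of regions (y axis, %) with peaks in 1, 2, 3 or 4 lists, for each window, the 5 windows together and the genome (x axis, with the number of regions). All 8 Klf4 regions are in a single list, and Sox2 alone has a region in 4 lists.

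Looked at from single peaks, GLI2 replicate 1 recurred most. Of its 21 window peaks, 12 met a GLI2 replicate 2 peak (57.1%, 95% exact interval 34.0 to 78.2), against 34.9% of the whole list. For GLI1 replicate 1, 6 of 26 met a GLI1 replicate 2 peak (23.1%, 8.97 to 43.6), against 20.8%. Both intervals contain the share of the whole list. Seen from GLI2 replicate 2, 12 of 34 met a GLI2 replicate 1 peak (35.3%, 19.7 to 53.5), against 18.9%, just below the interval. Seen from GLI1 replicate 2, 6 of 31 met a GLI1 replicate 1 peak (19.4%, 7.45 to 37.5), against 16.0%, inside the interval. Between factors, the replicate 2 lists overlapped most, with 11 of the 31 GLI1 replicate 2 peaks meeting GLI2 replicate 2 (35.5%, 19.2 to 54.6), against 13.9% in the whole list. The replicate 1 lists shared 1 peak, in 3.85% of the 26 GLI1 peaks (0.0973 to 19.6), against 8.16%. Lists of unlike replicate number overlapped as well. Of the 26 GLI1 replicate 1 peaks, 7 met GLI2 replicate 2 (26.9%, 11.6 to 47.8), against 10.1% in the whole list. Of the 31 GLI1 replicate 2 peaks, 5 met GLI2 replicate 1 (16.1%, 5.45 to 33.7), against 5.53%. Replicate numbers go with a caller setting named s in the labels (50 for replicate 1, 20 for replicate 2), and its part in these overlaps was not tested. Peaks of a window share a locus and are not independent, so these intervals may be too narrow.

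**Figure D4:**
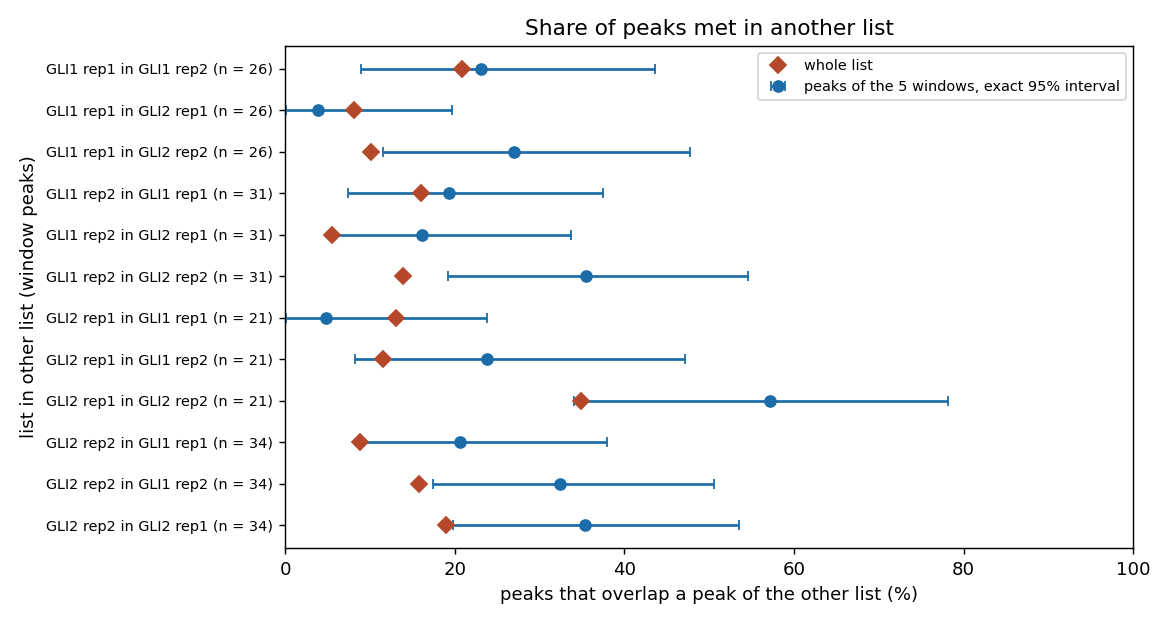
Share of peaks that overlap a peak of another list (x axis, %), for each ordered pair of lists (y axis). Circles are the window peaks with exact 95% intervals and diamonds the whole list: GLI1 replicate 2 in GLI2 replicate 2 stands at 35.5%, against 13.9% for the whole list.

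Median peak scores in the windows were close to those of their lists, and median widths were above those of the list in 3 of 4 lists. The GLI1 replicate 1 peaks had a median deposited score of 45.2, against 46.9 for the list, and 5 of 26 reached its 90th percentile of 62.2 (19.2%, 95% exact interval 6.55 to 39.4, against 10.0% of the list). These 5 lay at Nanog (69.6) and in the Esrrb window (67.2, 99.5, 70.0 and 67.5). The GLI2 replicate 1 peaks had a median score of 59.8, against 58.8, and 1 of 21 reached the 90th percentile of 74.7, in Esrrb. The scores are the authors' own, in a unit not given in the sources used here, and replicate 2 carries no usable scores. Median widths were 1400, 1400, 1600 and 1400 bp in GLI1 replicates 1 and 2 and GLI2 replicates 1 and 2, against 1400, 1200, 1200 and 1200 bp in the lists. Peaks of 3000 bp or more were 2 of 26 in GLI1 replicate 1 (7.69%, 95% exact interval 0.946 to 25.1), against 2.48% of the list. In GLI1 replicate 2 they were 4 of 31 (12.9%, 3.63 to 29.8), against 3.67%. In GLI2 replicate 1 there were 0 of 21, against 1.61% of the list, and in GLI2 replicate 2 there was 1 of 34 (2.94%), against 2.85%. The 4 GLI2 replicate 1 peaks at Nanog were all 1600 bp wide.

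**Figure D5:**
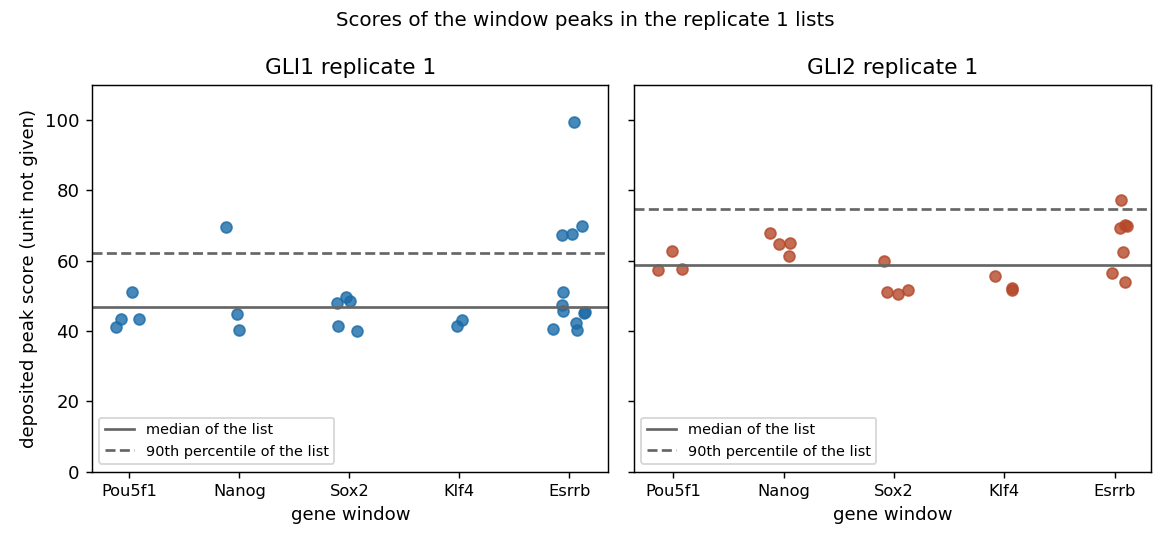
Deposited score (y axis, unit not given) of each window peak in the replicate 1 lists of GLI1 (left) and GLI2 (right), by gene (x axis), with the median (solid line) and 90th percentile (dashed line) of the list. The Klf4 points lie below the median in both lists, and the highest point, 99.5, is a GLI1 peak in Esrrb.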

How the data were processed

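The submitters' processing notes name CASAVA 1.7, BWA and the genome build mm9. The authors deposited 1 peak list per ChIP library, with a start, an end and a score per peak and no header. The peak caller and the unit of the score are not given in the sources used here. The lists' names in the labels carry cutoffs of 1e-4 (GLI1) and 1e-5 (GLI2) and a setting s of 50 (replicate 1) or 20 (replicate 2). Samples were grouped by title.

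Starts were moved to count from 1. Peaks overlapping a window by at least 1 bp were counted, beside all same-size windows every 10 kb over the span of that chromosome that holds peaks. These fixed tiles replace a random draw. Counts carry exact Poisson and shares Clopper-Pearson 95% intervals. Factors were compared by exact permutation of 4 lists. The counting was tested on simulated lists, where all 400 counts were returned. Members, gene lists and tests were chosen with earlier results of these data known. Named regions are all those with peaks in 2 or more lists, and some of the highest-scoring and widest peaks. Those nearest the central part are also named, and were chosen after the values were seen. Klf2, Tfcp2l1, Zfp42 and other pluripotency genes were not counted, since no mm9 annotation was used here. The promoter element of Nanog was chosen afterwards too. Python 3.11.15, numpy 2.4.6, pandas 2.3.3, scipy 1.17.1 and matplotlib 3.10.9 were used.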

Additional observations from a re-analysis of the deposited data

How the results depend on the processing

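Peaks per list in the 5 windows averaged 28, and regions with peaks of 2 or more lists numbered 21. With windows shortened by 30 kb at each end these were 16.25 and 13, and without the Esrrb window 15.75 and 11. Less sequence holds fewer peaks by construction, but the loss with shortened windows was uneven. At Sox2, shortening left 1 and 2 GLI1 peaks, from 5 and 5, and 0 and 1 GLI2 peaks, from 4 and 5. At Nanog it left 3 and 3 GLI1 peaks, from 3 and 5, and 3 and 5 GLI2 peaks, from 4 and 6. At Pou5f1 it left 4 and 1 GLI1 peaks, from 4 and 6, and 2 and 2 GLI2 peaks, from 3 and 5. At Klf4 it left 1 and 0 GLI1 peaks, from 2 and 1, and 0 and 0 GLI2 peaks, from 3 and 2. At Esrrb it left 10 and 12 GLI1 peaks, from 12 and 14, and 5 and 10 GLI2 peaks, from 7 and 16. A peak remained in 16 combinations of window and list, from 20. With windows extended by 50 kb at each end the mean was 43.5, and with lists of equal length it was 18.5. Leaving out each list gave 10 to 18 recurrent regions. The difference GLI1 minus GLI2, 1 peak, turned to -1 with extended windows, -8.5 where replicate 1 peaks had to score 50 or more, -5 with lists of equal length and -0.5 without the Esrrb window, and ranged from -5.5 to 7.5 when each list was left out. The turn with the score follows from its construction, since all GLI2 replicate 1 peaks already score that high. With lists of equal length, GLI2 replicate 1 keeps all of its 21 window peaks by construction, since it sets the length. In that setting GLI1 replicates 1 and 2 fell to 13 and 19, and GLI2 replicate 2 to 21. Other causes of these turns were not tested. None of these differences could pass a test of 2 lists against 2. With the replicate number as a block the difference stayed at 1 (exact sign-flip permutation p = 1, smallest possible 0.5). The labels do not say that the number marks a shared culture, and over 24128 windows of 100 kb the deviations of same-numbered lists had a Pearson r of 0.112, described without a test. The remaining 26 values of these results kept the direction of the difference, or stayed within 1 SD of the mean or within 1.5 times the count. The share of tiled windows with at least as many peaks stayed within 1 SD of the lists for each gene with windows of all autosomes, with windows that do not overlap, and with windows that hold a peak, although at Esrrb its mean over lists fell from 3.89% to 2.24% with all autosomes. Counts of 1 to 16 peaks per window limit what can be told apart, and read depth is unknown.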

Other observations

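Recurrent sites also lay just past the windows, and they are listed here because they were noticed after the values were seen. At Klf4, whose window held no recurrent region, a region on chromosome 4 from 55618401 to 55621800, 22.4 kb above the window, had peaks in both GLI1 lists and GLI2 replicate 1, with scores of 76.9 for GLI1 and 62.5 for GLI2. Another, from 55637201 to 55639000, had peaks in both replicate 1 lists (49.8 and 62.3). At Sox2, the window extended by 50 kb at each end held 9, 8, 11 and 10 peaks in GLI1 replicates 1 and 2 and GLI2 replicates 1 and 2, and 8 recurrent regions in place of 4. Both GLI2 lists and GLI1 replicate 1 marked chromosome 3 from 34602801 to 34604400, 0.801 kb above the window, and from 34641201 to 34645400, 39.2 kb above it. At Nanog, a region on chromosome 6 from 122715601 to 122717400, 0.601 kb above the window, had peaks in both replicate 1 lists, and its GLI2 score of 89.2 was higher than that of any GLI2 replicate 1 peak inside the 5 windows. At Esrrb, chromosome 12 from 87646801 to 87648400, 3.6 kb below the window, was marked by both GLI2 lists (score 84.5), and 87623001 to 87624600 by both GLI1 lists and GLI2 replicate 2. Both GLI2 lists and no GLI1 list marked chromosome 6 from 122578801 to 122580200, 26.8 kb below the Nanog window. They also marked chromosome 3 from 34486401 to 34487400, 11.6 kb below the Sox2 window, and from 34627401 to 34628800, 25.4 kb above it. No background was computed for these places, so their number is given as a description.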
